A study of Mus musculus with 4 samples.

Results

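Mitophagy receptors and adaptors are the proteins that mark a mitochondrion for removal and tie it to the autophagy machinery. Of the 20197 genes in the table, 8 were taken as members by name: Pink1, Bnip3, Bnip3l, Fundc1, Phb2, Sqstm1, Optn and Map1lc3b. All 8 had a row and were read in every library. They were compared in 4T1 cells, a Balb/c mouse mammary carcinoma line used to model triple negative tumors of the breast, between cells with high and cells with low mitochondrial membrane potential (MMP). The cells were wild type, grown as a monolayer, and stained with 20 nM MitoSpy Red, a dye that gathers in mitochondria according to their potential. The brightest 5% were sorted as high MMP and the dimmest 5% as low MMP, so that cells of middle brightness were in neither group. The groups differed in no allele, drug or time point, and all samples came from this established line. There were 2 RNA-sequencing samples per group. The study counts them as independent experiments or tumors, but neither it nor the labels tie the sample numbers to particular experiments.

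Damaged or surplus mitochondria are removed by mitophagy, in which a double membrane grows around the organelle and delivers it to the lysosome. In the ubiquitin route, the kinase PINK1 is imported and degraded while the membrane potential is high, collects on the surface of mitochondria that lose it, and phosphorylates ubiquitin, which starts the tagging of the organelle. The adaptors p62 (Sqstm1) and optineurin (Optn) then bind ubiquitin on one side and lipidated LC3 (Map1lc3b) on the other. In the receptor route, the outer-membrane proteins BNIP3, NIX (Bnip3l) and FUNDC1 bind LC3 proteins directly, and prohibitin 2 (Phb2) does so from the inner membrane once the outer one has ruptured. Much of this control acts on proteins, whereas the values here are messenger RNA. Bnip3 and Bnip3l are known targets of hypoxia-inducible factors, and Sqstm1 is a known target of NRF2.

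No member passed the test of a difference between high and low MMP cells. In limma's fit over all genes, 0 of 8 had an adjusted p under 0.05, against 0% of all 20197 genes. Bnip3l, Phb2 and Pink1 had lower values in both high MMP libraries than in either low MMP library, Optn had higher ones, and the groups overlapped for Bnip3, Fundc1, Sqstm1 and Map1lc3b. The largest difference was that of Bnip3, at -0.49 on the log2 scale, and it rested largely on high MMP replicate 2. Around the members, 12 of 17 genes of the hypoxia-inducible factor axis lay lower in both high MMP libraries, as did 23.7% of all genes with a mean of at least 10, also with none past the adjusted threshold. That axis was chosen with earlier results of these data known. As these are bulk samples, fewer cells that express a gene and less of its RNA per cell cannot be told apart.

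Reads recovered from the deposited values, which cover only the genes of the table, came to 26395015 and 23899813 in high MMP replicates 1 and 2. In low MMP replicates 1 and 2 they came to 22941960 and 22591970. A value below is a normalized read count, that is, the reads of a gene after each library was scaled to a total of 20000000. The tumor line label was checked against markers: all 9 epithelial markers had a mean of at least 10 normalized reads, while the leukocyte marker Ptprc was at most 1.77 and, of the 4 leukocyte and 5 fibroblast or endothelial markers in the table, Cd68 (59.9 to 149) and Pdgfra (319 to 589) reached that mean. Some genes outside the members set libraries apart. Transcripts of the protein-coding genes of the mitochondrial genome took 1.27% of reads in high MMP 1 against 2.02% to 2.24% in the other libraries. The immediate-early gene Fos stood at 2419 and 521 in the high and 326 and 2357 in the low MMP replicates, so that high 1 resembled low 2. Of 20 mitotic genes, 17 were higher in both high MMP libraries, against 14.3% of all genes, with a median log2 difference of 0.65. Their part in the values of the members was not tested.

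Per kilobase of the longest principal transcript, the members spanned a wide range of expression levels. Sqstm1 had the highest mean over the 4 libraries at 3817 normalized reads per kilobase (3581 to 3974), followed by Phb2 at 3439 (3094 to 3642). On this length their ranges overlapped. Bnip3l followed at 793 (662 to 891) and Map1lc3b at 534 (480.2 to 592), and these neighbours did not overlap. Fundc1 at 288 (272 to 318) and Bnip3 at 281 (176 to 350.4) could not be ordered. Optn at 158 (137 to 171) and Pink1 at 125 (114 to 139) were lowest, and their ranges overlapped as well. These levels depend on the length that is chosen. With the union of all annotated exons, Sqstm1 (2317, from 2174 to 2412) and Phb2 (1219, from 1097 to 1291) no longer overlapped. Map1lc3b then came to 180 and lay below the means of Fundc1 (243) and Bnip3 (218), and Pink1 (111) and Optn (110.0) were nearly level.

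Hypoxia-inducible factors bind short elements whose core reads ACGTG or GCGTG, and TFEB-type factors bind CACGTG. The 250 bases before the RefSeq start site (GRCm38.p6) of Bnip3, which had the largest difference, and of the members with an entry whose groups did not overlap are shown for that reason, 5′ to 3′ on the gene's strand. Capitals mark matches to these letters, with CACGC and CACGT being the matches read on the opposite strand. The stretches are chr7:138909507-138909756 on the minus strand for Bnip3, chr2:5064118-5064367 on the minus strand for Optn, chr6:124712039-124712288 on the plus strand for Phb2 and chr4:138326297-138326546 on the minus strand for Pink1.
Bnip3: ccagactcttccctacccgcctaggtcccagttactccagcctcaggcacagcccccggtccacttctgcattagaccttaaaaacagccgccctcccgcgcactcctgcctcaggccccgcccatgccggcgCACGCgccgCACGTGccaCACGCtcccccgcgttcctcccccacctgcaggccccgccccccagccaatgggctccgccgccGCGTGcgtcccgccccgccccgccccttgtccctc
Optn: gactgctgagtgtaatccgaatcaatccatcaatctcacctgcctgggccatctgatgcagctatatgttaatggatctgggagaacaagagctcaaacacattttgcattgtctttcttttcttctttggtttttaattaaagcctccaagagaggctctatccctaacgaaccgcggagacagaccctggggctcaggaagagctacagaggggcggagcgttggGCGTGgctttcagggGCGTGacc
Phb2: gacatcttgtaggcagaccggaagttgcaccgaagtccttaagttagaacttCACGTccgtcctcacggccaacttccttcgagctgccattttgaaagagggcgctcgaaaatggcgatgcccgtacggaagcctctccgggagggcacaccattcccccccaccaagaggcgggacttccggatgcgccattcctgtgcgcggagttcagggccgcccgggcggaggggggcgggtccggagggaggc
Pink1: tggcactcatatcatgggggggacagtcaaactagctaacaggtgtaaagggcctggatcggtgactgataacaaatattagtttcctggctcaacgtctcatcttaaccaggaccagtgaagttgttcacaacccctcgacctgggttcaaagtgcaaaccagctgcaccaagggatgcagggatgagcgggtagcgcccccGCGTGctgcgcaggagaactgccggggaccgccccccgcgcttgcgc
The Bnip3 stretch held CACGTG, which contains ACGTG on both strands, from base -108 to -103 before the start, and GCGTG at -35 on the gene's strand and at -99 and -117 on the other. It was also the richest in G and C, at 72.4%. Optn held GCGTG at -23 and -8, Pink1 at -47, and Phb2 held ACGTG on the opposite strand at -198. Of the members with an entry that are not shown, Map1lc3b held 5 matches to ACGTG or GCGTG, as many as Bnip3. Fundc1 and Sqstm1 held 0, and the groups of these members not shown all overlapped. In all, 5 of the 7 members with an entry had a match to ACGTG or GCGTG, as did 38.6% of the 32851 promoter stretches of this length, and CACGTG alone was held by 6.02% of them. A match of letters is a description of the sequence and not a bound site.

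Pink1 (ENSMUSG00000028756, chr4:138313409-138326307, minus strand, GRCm38), the kinase that senses loss of potential, stood at 294 and 270.3 normalized reads in high MMP replicates 1 and 2 and at 295 and 331 in low MMP replicates 1 and 2. Both high MMP values were the lower ones, but high 1 and low 1 were less than 1 read apart. The means were 282 ± 16.8 and 313 ± 25.8 (SD, n = 2 each), a log2 difference of -0.15 with a standard error of 0.12 and a 95% interval of -0.46 to 0.17 (limma adjusted p = 0.786). Pink1 had the fewest reads of all members, 323 to 388 per library before scaling, which puts the counting error of its lowest value at 5.56%.

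Bnip3 (ENSMUSG00000078566, chr7:138890836-138909519, minus strand), the outer-membrane receptor induced in hypoxia, had 527 and 309.6 normalized reads in the high MMP replicates and 521 and 615 in the low MMP replicates. High 1 lay with low 1, and high 2 was far below the other three. The means of 418 ± 153 and 568 ± 66.4 gave a log2 difference of -0.49 with a standard error of 0.29, and a 95% interval of -1.27 to 0.29 (limma adjusted p = 0.699). The high MMP replicates were 0.76 apart on the log2 scale, further than the group means. Without high 2 the difference was -0.10, and without high 1 it was -0.87. Among all alternatives tried, only edgeR on the recovered reads with high 1 set beside low 2 and high 2 beside low 1 as blocks, a pairing chosen after the data were seen, called a member. It called Bnip3 (log2 difference -0.44, adjusted p = 0.0122) and 3.63% of all genes.

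Bnip3l (ENSMUSG00000022051, chr14:66985239-67008877, minus strand) encodes NIX, the paralog of BNIP3 that clears mitochondria from maturing red cells. Its values were 2547 and 2143 in the high MMP and 2699 and 2885 in the low MMP replicates. The groups did not overlap, and high 2 was again the lowest library and low 2 the highest. The means were 2345 ± 285 and 2792 ± 132, a log2 difference of -0.26 with a standard error of 0.12 (95% interval -0.57 to 0.06), which had the smallest p of the members (unadjusted 0.0897 and adjusted 0.604, limma). Leaving out single libraries moved it between -0.38 and -0.13. The pseudogene Bnip3l-ps had 12 to 28 reads against 2561 to 3361 of Bnip3l.

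Fundc1 (ENSMUSG00000025040, chrX:17556564-17572325, minus strand), another outer-membrane receptor, had 629.7 and 539 normalized reads in the high MMP and 557 and 561 in the low MMP replicates. The low MMP values lay between the high ones. Its means of 584 ± 64.2 and 559 ± 2.97 differed by 0.06 on the log2 scale with a standard error of 0.11, and a 95% interval of -0.24 to 0.36 (limma adjusted p = 0.941).

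Phb2 (ENSMUSG00000004264, chr6:124712336-124716950, plus strand), the inner-membrane receptor that also forms an inner-membrane scaffold with prohibitin 1, had 4521 and 4078 in the high and 4732 and 4799.9 in the low MMP replicates. Every high MMP value was below every low one. The means were 4299 ± 313 and 4766 ± 48.1, and the log2 difference of -0.15 had a standard error of 0.09 and a 95% interval of -0.40 to 0.10 (limma adjusted p = 0.711).

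Sqstm1 (ENSMUSG00000015837, chr11:50199366-50210827, minus strand) encodes p62, an adaptor that carries ubiquitinated cargo and also binds KEAP1, the repressor of NRF2. It had 8095 and 7746 normalized reads in the high MMP and 7963 and 7295 in the low MMP replicates, and the groups overlapped. The means of 7920.2 ± 247 and 7629 ± 472 were 0.06 apart on the log2 scale with a standard error of 0.10 and a 95% interval of -0.21 to 0.32 (limma adjusted p = 0.936). Mrnip, which overlaps Sqstm1 on the opposite strand, had 123 to 161 reads against 8240.0 to 10683 of Sqstm1.

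Optn (ENSMUSG00000026672, chr2:5020642-5064051, minus strand) encodes optineurin, an adaptor phosphorylated by TBK1, and was the single member with higher values in both high MMP libraries. It stood at 434 and 446 in the high MMP and at 413 and 358 in the low MMP replicates, so that low 2 was the library furthest from the others. The means were 440.1 ± 8.38 and 385 ± 39.3, a log2 difference of 0.19 with a standard error of 0.11 and a 95% interval of -0.11 to 0.50 (limma adjusted p = 0.690).

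Map1lc3b (ENSMUSG00000031812, chr8:121590361-121598760, plus strand) encodes LC3B, the lipid-anchored protein to which receptors and adaptors bind. It had 1499.5 and 1216 in the high MMP replicates, above and below the 1356 and 1331 of the low MMP replicates. The means of 1358 ± 200.6 and 1344 ± 17.7 gave the smallest difference of the members, 0.01 on the log2 scale with a standard error of 0.13 and a 95% interval of -0.34 to 0.35 (limma adjusted p = 0.994). Its exons overlap those of Zcchc14 on the opposite strand, which had 2885 to 3478 reads against 1453 to 1979 of Map1lc3b. Whether counting used the strand is not given in the sources used here, so that the level of Map1lc3b is uncertain. Bnip3 and Optn also overlap annotated antisense genes on the opposite strand, which had no row in the table used here.

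**Figure D1:**
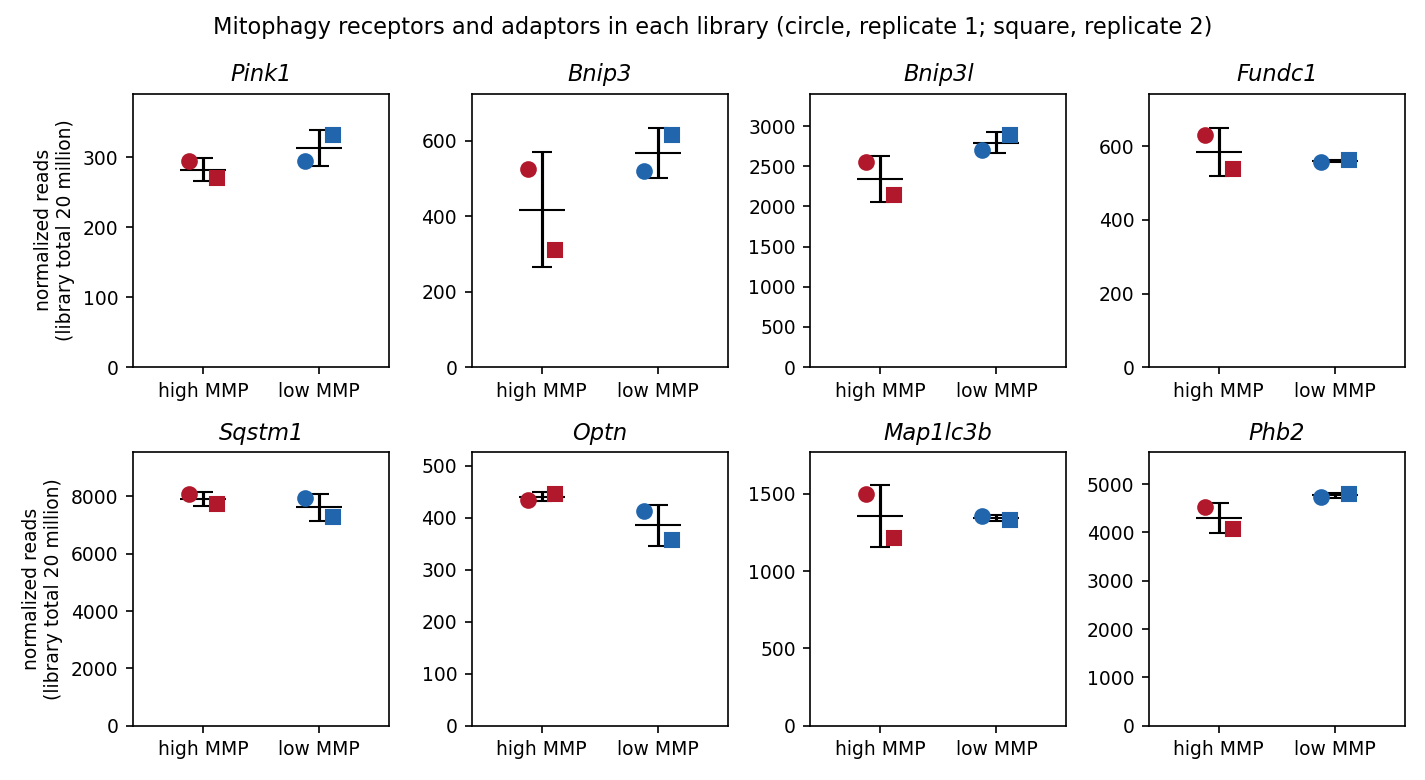
Normalized reads (vertical axes, library total 20000000) of the 8 members in the high MMP (red) and low MMP (blue) libraries, with circles for replicate 1, squares for replicate 2, a line at the mean and bars of 1 SD (n = 2). Both high MMP values lie below the low ones for Pink1, Bnip3l and Phb2 and above them for Optn, and the high MMP replicates of Bnip3 lie far apart at 527 and 309.6.

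Over the 8 members, the median log2 difference was -0.07, against -0.03 over all 12902 genes averaging at least 10 normalized reads. With 1 member higher and 3 lower without overlap, the counts are to be read against 14.3% of those genes that were higher and 23.7% that were lower in this way. None of the 8 had an unadjusted limma p under 0.05, a mark that 7.63% of genes passed. With 2 samples against 2, an exact permutation test of a single gene could not give a p below 0.333, and none was used.

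The division of all genes with a mean of at least 10 depended on scaling. Of the genes whose groups did not overlap, 62.3% were lower in high MMP with the values as deposited, 48.7% after median-of-ratios rescaling and 50.1% after quantile normalization. Under both rescalings Bnip3l and Phb2 remained lower and Optn higher without overlap, whereas the groups of Pink1 then overlapped. Over all genes, 18.4% were lower and 19.3% higher without overlap after median-of-ratios rescaling, and 18.6% and 18.5% after quantile normalization.

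The members also differed between replicates. The lowest of the 4 libraries was high MMP 2 for 6 of the 8 members, as it was for 29.3% of all genes, and 7 of the 8 were lower in high 2 than in high 1, against 47.6% of all genes. Without high 2, 4 members were higher and 3 lower without overlap and the median was 0.01, while 34.9% of all genes were higher and 46.3% lower. Without high 1, 6 were lower and 1 higher and the median was -0.18, while 44.0% of all genes were then lower and 32.3% higher. Within same-numbered libraries, 3 members were lower in high MMP in both, 2 were higher in both, and 3 changed sign.

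**Figure D2:**
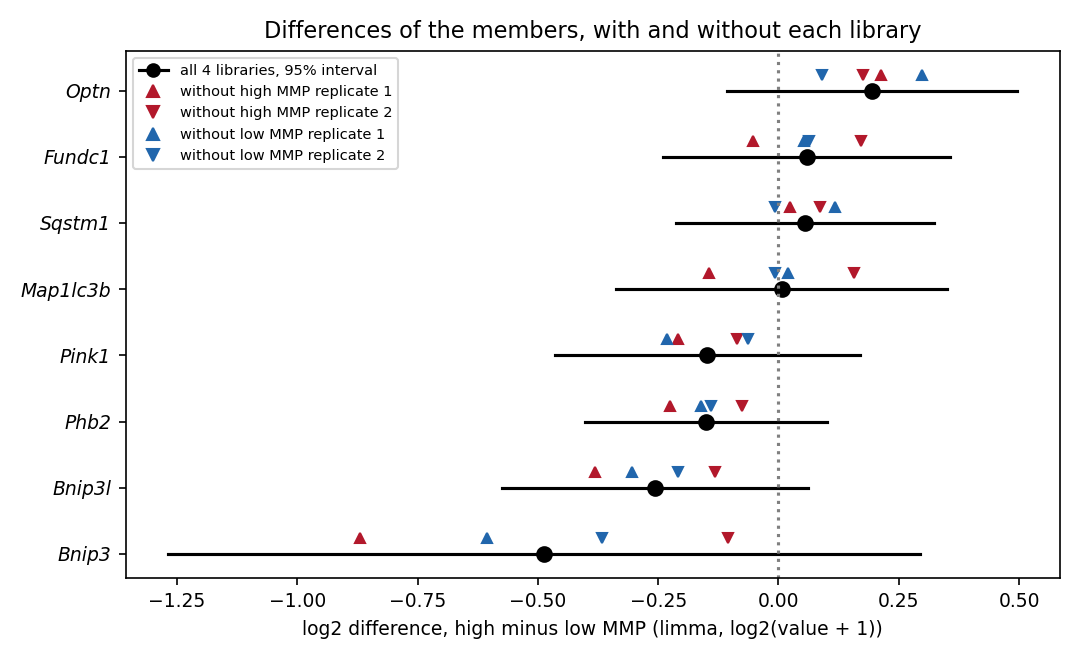
Log2 differences, high minus low MMP, of the 8 members (horizontal axis) in limma's fit of log2(value + 1), with black points and 95% intervals for all 4 libraries and triangles for fits without 1 library. Every interval includes 0, and the difference of Bnip3 runs from -0.87 without high MMP replicate 1 to -0.10 without high MMP replicate 2.

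The other genes of the pathway were grouped by role. Their counts without overlap are to be read against 14.3% of all genes that were higher and 23.7% that were lower. Among 13 further receptors and their regulators, 2 were lower without overlap and none higher, with a median log2 difference of -0.04. These were Fbxl4, which restrains BNIP3 and NIX (-0.15, standard error 0.10), and Tbc1d17, a Rab GTPase-activating protein (-0.17, standard error 0.10). Of 20 genes of the PINK1 axis, 4 were higher and 4 lower (median -0.01), among them the polyubiquitin gene Ubb (0.33, standard error 0.16) and Mfn2, an outer-membrane fusion protein that the axis ubiquitinates (0.15, standard error 0.08), both higher.

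Among 12 other cargo adaptors, 3 were higher and 4 lower without overlap (median 0.04), against 14.3% and 23.7% of all genes. Azi2, a scaffold of the kinase TBK1, had 1306 and 1463 normalized reads in high and 1674 and 1648 in low MMP cells (log2 difference -0.27, standard error 0.09, limma adjusted p = 0.472). Tbk1, the kinase that phosphorylates optineurin and p62, followed the same order at 1286 and 1419 against 1583 and 1549 (log2 difference -0.21, standard error 0.09, limma adjusted p = 0.550).

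Of 14 genes of the ATG8 family and its conjugation, to which Map1lc3b belongs by function, 4 were higher and 1 lower (median 0.06). The shares of all genes were 14.3% and 23.7%. Atg4a, a protease that processes ATG8 proteins, stood at 183 in each high MMP library against 141 and 143 in the low ones (log2 difference 0.36, standard error 0.11, limma adjusted p = 0.472). Atg16l1, part of the complex that lipidates LC3, was the lower one (-0.20, standard error 0.12). Among 25 genes of initiation, membrane supply and fusion, 8 were lower and 1 higher, a share of 32.0% lower against 23.7% of all genes, and the median was -0.07 against -0.03. The lower ones included Atg14, a subunit of the autophagy lipid kinase complex (-0.24), and Tmem41b, a lipid scramblase (-0.27). After median-of-ratios rescaling 6 (24.0%) were lower and 2 (8.0%) higher, against 18.4% and 19.3% of all genes.

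Lysosomal genes and their regulators gave 3 higher and 2 lower of 23 (median 0.01), against 14.3% and 23.7% of all genes. Mitf, a relative of TFEB, stood at 196 and 209 in high and 139 and 99.2 in low MMP cells (log2 difference 0.78, standard error 0.20, limma adjusted p = 0.472), whereas the lysosomal protease gene Ctsd had a difference of -0.14. Over these 107 mitophagy and autophagy genes, 15 (14.0%) were higher and 21 (19.6%) lower without overlap with the values as deposited. The shares of all genes were 14.3% and 23.7%. After median-of-ratios rescaling 23 (21.5%) were higher and 17 (15.9%) lower, against 19.3% and 18.4% of all genes. After quantile normalization 21 (19.6%) were higher and 16 (15.0%) lower, against 18.5% and 18.6%. The larger count of the 107 genes changed sides with the scaling, and the shares of all genes shifted as well. At an unadjusted limma p under 0.05, 2 of the 107 were higher (Atg4a and Mitf) and 1 was lower (Azi2), and none passed after adjustment. Of all 12902 genes, 369 were higher and 615 lower at that mark, which is 7.63% in either direction.

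**Figure D3:**
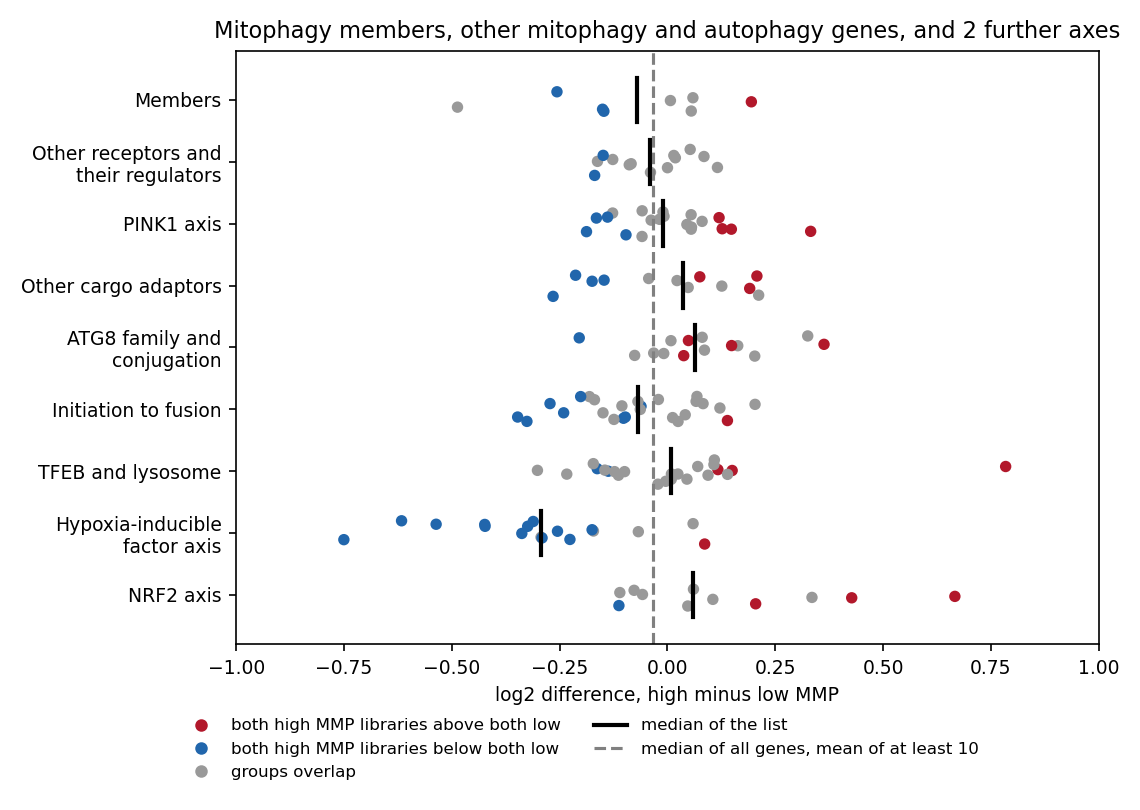
Log2 differences, high minus low MMP (horizontal axis), of single genes with a mean of at least 10 in 9 groups of genes, with red and blue for genes whose high MMP values were both above or both below the low ones, grey for overlap, black bars for medians and a dashed line for the median of all genes (-0.03). Medians of the mitophagy and autophagy groups lie between -0.07 and 0.06, and that of the hypoxia-inducible factor axis at -0.29.

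Because Bnip3 and Bnip3l are known targets of hypoxia-inducible factors, other genes of that axis were described beside them. Of 17 with a mean of at least 10, 12 were lower in both high MMP libraries and 1 was higher, with a median log2 difference of -0.29. Over all genes, 23.7% were lower and 14.3% higher in this way. The counts of the axis were the same under both rescalings, where 18.4% and 18.6% of all genes were lower. At an unadjusted limma p under 0.05, 6 were lower (Pdk1, P4ha1, P4ha2, Egln3, Vhl and Kdm3a), against 4.77% of all genes, and 0 passed after adjustment. The 17 genes include the factors and their regulators, such as Hif1a, Arnt and Vhl, as well as targets.

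Pdk1, whose kinase restrains the entry of pyruvate into the tricarboxylic acid cycle, had the largest difference of the axis. It stood at 530.4 and 395 in high and 725 and 819 in low MMP cells, with high 2 lowest and low 2 highest as for Bnip3 (log2 difference -0.75, standard error 0.18, limma adjusted p = 0.472). P4ha1, a collagen prolyl hydroxylase subunit, had 1456 and 1705 against 2063 and 2165 (log2 difference -0.42, standard error 0.11, limma adjusted p = 0.472), and here high 1 was lowest. Hif1a itself, at 5844 and 6044 against 5706 and 5492, was the gene on the higher side (log2 difference 0.09), and Vegfa, Ddit4, Ero1l and Arnt overlapped. From high 1 to high 2 the median log2 change was 0.03 over the axis, against -0.19 over the members. Without high 2 the median difference of the axis was -0.36, whereas the difference of Bnip3 was -0.10. With each library left out in turn, 13 or 14 genes of the axis were lower and 1 or 2 higher without overlap, with medians of -0.36 to -0.24, while 35.0% to 46.3% of all genes were then lower.

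**Figure D4:**
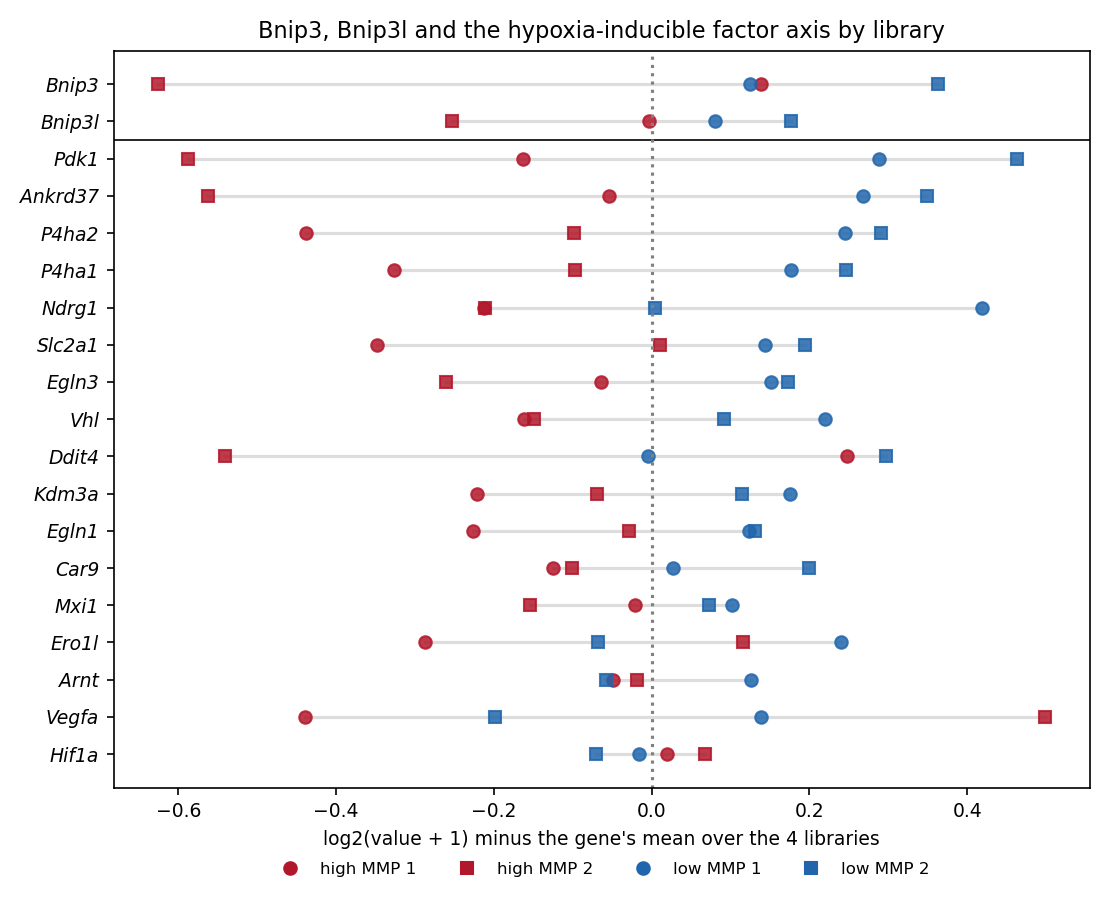
Values of Bnip3, Bnip3l and 17 genes of the hypoxia-inducible factor axis in each library, as log2(value + 1) minus the mean of the gene over the 4 libraries (horizontal axis), with red for high and blue for low MMP, circles for replicate 1 and squares for replicate 2. The red points lie left of the blue ones for 12 of the 17 genes and for Bnip3l. High MMP 2 is the lowest library for Bnip3, Bnip3l and Pdk1, whereas high MMP 1 is the lowest for other genes of the axis, such as P4ha1 and P4ha2.

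For NRF2, of which Sqstm1 is a target, 3 of 11 genes of the axis were higher and 1 lower without overlap (median 0.06). The shares of all genes were 14.3% and 23.7%. Hmox1, which encodes heme oxygenase, had 618 and 683 in high and 567 and 412 in low MMP cells (log2 difference 0.43, standard error 0.18, limma adjusted p = 0.574), and the thioredoxin reductase gene Txnrd1 had 6882 and 6773 against 5990 and 5861 (log2 difference 0.20, standard error 0.08, limma adjusted p = 0.549). Sqstm1, at a difference of 0.06, was close to the median of this axis.

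Of 17 nuclear genes for abundant mitochondrial proteins, 2 were higher and 6 lower without overlap, with a median log2 difference of -0.01. The shares of all genes were 14.3% and 23.7%. These values are messenger RNA and do not measure mitochondrial content. Protein-coding transcripts of the mitochondrial genome had a median of -0.39 over 10 genes, none of them higher and 2 lower without overlap. That median was -0.76 between the replicates numbered 1 and -0.05 between those numbered 2. Of 19 immediate-early and stress genes, 6 were higher and 1 lower without overlap, against 14.3% and 23.7% of all genes. Their median was 0.30 overall but 0.70 between the replicates numbered 1 and -0.23 between those numbered 2. For the members the same medians were 0.02 and -0.18.

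Among 9998 genes with a mean of at least 100, those with a profile over the 4 libraries close to that of Bnip3 included Cavin3, a caveola coat protein gene (distance 0.083 in log2 units after centring) and Txnip, an inhibitor of thioredoxin (0.129). Cavin3 stood at 853 and 529.7 in high and 842 and 1056 in low MMP cells, with the same low value in high 2. Closest to Bnip3l were Inip (0.035), Tmem41b (0.040) and Maged1 (0.040), and Inip had 749 and 617 against 773 and 848. With 4 libraries such likeness is a description only.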

How the data were processed

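RNA was extracted from 100000 sorted cells per sample, and 200 ng entered a stranded mRNA library preparation. According to the methods and processing notes, the authors aligned the reads to GRCm38 (mm10) with STAR, and HTSeq is also named. Versions, the annotation release and the use of strand in counting are not given in the sources used here. The deposited values are a normalized signal per gene, and the authors scaled each library to a total of 20000000 and kept genes detected in at least 2 libraries. All values were whole multiples of a step per library, and 100.0% gave whole reads (tolerance 0.1). The table held 0 columns of no sample. Identifiers were matched to GENCODE M21, with 19993 of 20197 found, and promoter sequences are those of RefSeq (GRCm38.p6), found for 7 of the 8 members.

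Groups and replicate numbers came from the sample titles. High and low MMP cells were compared on log2(value + 1), a scale that understates changes of low genes, with limma 3.58.1 (trend on mean expression, no block) in R 4.3.3, with Benjamini-Hochberg adjustment over 20197 genes and a threshold of 0.05. Alternatives were pseudocounts of 0.5 and 10, means of at least 1 and 10, no trend, median-of-ratios (factors 0.982 to 1.019) and quantile scaling, edgeR 4.0.16 and DESeq2 1.42.0 on the recovered reads, replicate blocks, and leaving out each library. The fits were also run on simulated counts. These held no shifts shared by many genes of a library, so they do not show how the fits perform on these libraries. Counts of genes whose groups did not overlap used means of at least 10. The members and gene lists were chosen with earlier results of these data known. Genes named were the 8 members, the 2 of smallest unadjusted p in each of 8 pathway lists, and the 3 nearest in profile (Euclidean distance, mean of at least 100) to the 2 members of widest range, of which 1 is not reported here. Other genes named, such as Hif1a, Fos and the markers, were chosen after their values were seen.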

Additional observations from a re-analysis of the deposited data

How the results depend on the processing

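Over 17 alternative settings, the 8 members gave 136 differences, of which 131 kept their direction and their side of the adjusted threshold. The gene filters, the trend and the blocks in limma cannot alter the difference itself. For those settings the direction was fixed beforehand, so the count of 131 overstates how far direction was tested. The 4 that changed direction came from leaving out a library: Fundc1 to -0.053 and Map1lc3b to -0.14 without high MMP replicate 1, and Sqstm1 to -0.0081 and Map1lc3b to -0.0066 without low MMP replicate 2. Ranges over the 4 such fits were -0.87 to -0.10 for Bnip3, -0.38 to -0.13 for Bnip3l, -0.053 to 0.17 for Fundc1, -0.14 to 0.16 for Map1lc3b, 0.091 to 0.30 for Optn, -0.22 to -0.076 for Phb2, -0.23 to -0.064 for Pink1 and -0.0081 to 0.12 for Sqstm1. In a fit that leaves a group with 1 library, that library is assumed to vary like the others. Limma without a block called 0 genes (2011 at an unadjusted p under 0.05), edgeR 0 (1423) and DESeq2 118, none of them a member.

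Whether the replicate numbers mark a shared sort is not given in the sources used here. The deviations of same-numbered libraries had a correlation of -0.42 over 12902 genes, and the numbers were not treated as pairs. With the replicate block, limma called 0 genes (1055 at an unadjusted p under 0.05), and edgeR called 106 of 20197 genes, none of them a member. Of the 17 genes of the hypoxia-inducible factor axis, edgeR called 1 with this block (Pdk1, edgeR adjusted p = 0.0317). The crossed block, chosen after the data were seen, gave 733 genes in edgeR, which is 3.63% of all genes, and 0 in limma (2128 at an unadjusted p under 0.05). The genes called by edgeR included 1 of 8 members (Bnip3, -0.44) and 4 of 17 genes of the hypoxia-inducible factor axis. They also included 3 of 11 of the NRF2 axis and 1 of 23 of the TFEB and lysosome list. The cause of these differences between settings was not tested.

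With 2 libraries per group, the 95% intervals of the members reach 0.25 to 0.78 to either side of the difference on the log2 scale, and smaller changes could not be told from the spread. These intervals hold for single genes without adjustment. A change beyond its interval could still miss the adjusted threshold, as that of Pdk1 did (log2 difference -0.75, 95% interval -1.23 to -0.27, limma adjusted p = 0.472). Counting error is the lesser limit, at most 5.56% for the lowest value of a member, and covers counting only.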
